A study of Mus musculus with 16 samples.

Results

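Wnt ligands, their Frizzled receptors and co-receptors, and the secreted proteins that hold them back were followed in mouse kidney 24 h after obstruction of its ureter and in untreated kidney, with and without IL-33. The members were chosen by symbol: each gene whose symbol is Wnt, Fzd, Dkk or Sfrp followed by a digit, and Wif1, Lrp5, Lrp6, Axin2, Lef1 and Tcf7. This gave 42 of the 18132 genes in the deposited table. They are 19 Wnt ligands, 9 Frizzled receptors, 2 co-receptors, 4 Dickkopf proteins, 5 other secreted inhibitors (Sfrp genes and Wif1), and the 3 genes Axin2, Lef1 and Tcf7. No value is listed for Fzd9. The secreted inhibitor Sfrp1 and the co-receptor Lrp6 were called lower in the obstructed kidneys of both genotypes. The call of Lrp6 was lost in both genotypes when either control array of the genotype was left out, while that of Sfrp1 was kept in every alternative run in the deficient mice and lost in 1 alternative, a single set of mice, in those with IL-33. No Wnt ligand passed the test in either genotype, though a few did under alternative processing or without single arrays. Most ligands had low intensities, where changes may be compressed.

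Wnt proteins are secreted, lipid-modified ligands that bind a Frizzled receptor together with the co-receptor Lrp5 or Lrp6. In the canonical branch this stops the destruction of beta-catenin, which enters the nucleus, binds factors of the TCF/LEF family and switches on target genes such as Axin2, while other branches act on cell polarity. Secreted Frizzled-related proteins and Wif1 bind the ligands outside the cell and Dickkopf proteins such as Dkk1 bind the co-receptors, and in kidney the pathway is known for its part in forming nephrons and as a signal active in injured and fibrotic tissue.

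In unilateral ureteral obstruction (UUO) a metal clip closed the left ureter of the mouse through a cut in the flank, under isoflurane anesthesia and with buprenorphine as analgesic, and the kidney was taken 24 h later. The mice were wildtype (WT) or deficient in IL-33, a cytokine that is also found in the nucleus. The deficient line, called KO in the labels, had been backcrossed to C57BL/6J BomTac, and the study's mice were 8 weeks old unless it states otherwise. RNA of each kidney was hybridized to 1 Illumina BeadChip, an array on which the brightness of a probe follows the amount of its transcript.

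The 4 groups were WT control (2 arrays), WT UUO (7 arrays), KO control (2 arrays) and KO UUO (5 arrays). The UUO arrays belong to 2 sets of mice, with 3 WT and 2 KO arrays in set 1 and 4 WT and 3 KO arrays in set 2. The set of the controls is not stated. The control kidneys were untreated, so obstruction cannot be told apart from surgery, anesthesia and analgesic. Arrays are named below by the number in their label. Values are log2 intensities after quantile normalization, a scale on which a difference of 1 doubles the intensity, and the number of arrays limits their precision. The lowest deposited intensity was 95.5, and the array medians lay between 132.3 and 133.4. All 42 members had a symbol in RefSeq, but the table gives no probe IDs, so whether each probe maps to the gene of its symbol, Fzd10 included, could not be checked.

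Il33 separated the genotypes after UUO: its log2 intensity was 6.80 to 7.02 on the KO UUO arrays and 8.39 to 9.57 on the WT UUO arrays. Among the WT UUO arrays, 2 stood nearer to the controls than the rest in tubular injury markers, array 3818 less so than array 3820. Havcr1, a tubular injury gene, had a log2 intensity of 10.42 on array 3820 and 12.84 on array 3818, against 13.12 to 13.95 on the other WT UUO arrays and 7.24 and 7.22 on the WT controls. Both are arrays of set 1, and results that move without them are given with their values. Array 3818 was not near the controls in every marker list. Its summed intensity of fibroblast and myofibroblast markers was 4642, above the WT UUO median of 3898 and the WT controls at 3144 and 3562.

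The Wnt ligands were mostly dim. Of the 42 members, 25 had a mean below the median of all genes, a log2 intensity of 7.05, in each of the 4 groups (59.5%, against 45.9% of all genes). Among the ligands this held for 15 of 19, among the Frizzled receptors for 2 of 9, among the Dickkopf genes for 3 of 4, among the other secreted inhibitors for 3 of 5, and for Lef1 and Tcf7. The group means of these 25 members lay between 6.75 and 7.01, and the lowest value in the whole table was 6.59. The arrays come with no detection call, so whether these genes were transcribed at all was not tested, and a change in a dim gene may be compressed on this scale. Of the ligands, Wnt5a, Wnt5b and Wnt7b had means at or above that median in every group. So did the receptors Fzd1, Fzd5, Fzd6, Fzd7 and Fzd8, both co-receptors, and the inhibitors Dkk3, Sfrp1 and Wif1. Brightness depends on the probe, so these positions do not rank the genes by abundance.

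In WT kidneys 2 of 42 members were lower after UUO than in controls, Lrp6 and Sfrp1, and 0 were higher, at an adjusted p under 0.05 from limma. The same test called 8.22% of all genes lower and 6.97% higher. A gene is called below when it passes this threshold, with p-values adjusted over all 18132 genes. At an unadjusted p under 0.05 there were 6 members in WT, beside 26.0% of all genes. In KO kidneys 3 of 42 members were lower, Fzd2, Lrp6 and Sfrp1, and 0 were higher, where 11.2% of all genes were called lower and 10.6% higher. At an unadjusted p under 0.05 there were 7 members in KO, beside 30.7% of all genes. The median difference of the members was -0.02 in WT and -0.02 in KO, against -0.000759 and -0.00057 over all genes, and the median size of the difference, sign aside, was 0.0412 in WT and 0.0560 in KO, against 0.0656 and 0.0744 over all genes. The count in WT was 1 without control 3811 or 3812, 4 without UUO array 3818 and 3 without UUO array 3820 or KO UUO array 3822. The count in KO was 1 without control 3813, control 3814 or UUO array 3898, 2 without UUO array 3897 or 3899, 4 without WT UUO array 3818 or 3820 and 5 without WT UUO array 3819. The count in KO was also 4 without UUO array 3821, where Wnt9b was called in addition, as it was without WT control 3811 or 3812. The count in WT was also 3 without UUO array 3892, where Wnt2b was called in addition. Removing an array of the other genotype changes only the estimate of spread. Over all genes the calls in WT came to 2754, and to 1051 without control 3811, 809 without control 3812, 3095 without UUO array 3818 and 3578 without UUO array 3820. In KO they came to 3955, and to 2276 without control 3813, 2575 without control 3814, 3686 without UUO array 3898, 4001 without WT UUO array 3819, 4079 without 3818 and 4294 without 3820.

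**Figure D1:**
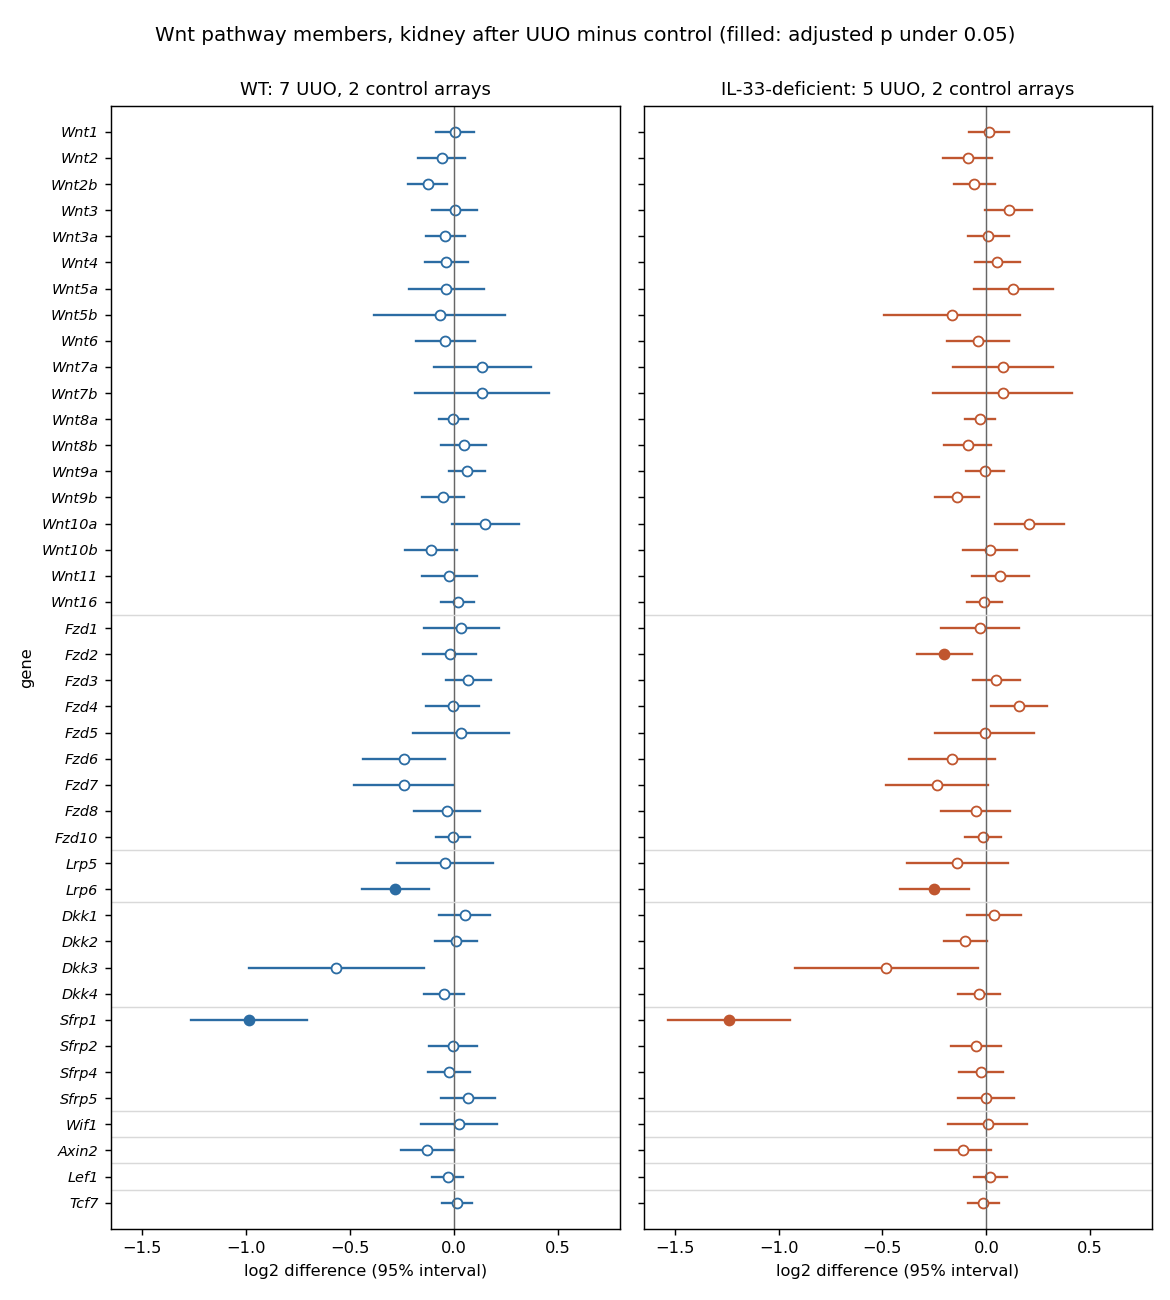
Difference in log2 intensity between UUO and control kidneys (horizontal axis) for each of the 42 members (vertical axis, grouped by role), in WT on the left and IL-33-deficient mice on the right. Points are differences of group means and bars 95% intervals from limma, filled where the adjusted p is under 0.05. Sfrp1 lies farthest from 0 in both genotypes, at -0.99 and -1.24, while the Wnt ligands lie between -0.16 and 0.21.

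Of the 19 Wnt ligands 0 were called in either genotype by limma. Over all genes 8.22% were called lower and 6.97% higher in WT, and 11.2% and 10.6% in KO. Among the ligands 15 of 19 were dim in all groups, where changes may be compressed, so the count of 0 says little about them. The differences of the 19 ligands ran from -0.12 to 0.15 in WT and from -0.16 to 0.21 in KO, with medians of -0.02 and 0.01. Wnt10a, named for having the highest difference in each genotype, gave 0.15 in WT (95% interval -0.01 to 0.31) and 0.21 in KO (95% interval 0.04 to 0.37). Wnt5a, a ligand best known for branches that do not need beta-catenin, differed by -0.03 in WT (95% interval -0.22 to 0.15) and by 0.13 in KO (95% interval -0.06 to 0.32). Wnt7b, a ligand made by the developing collecting duct, differed by 0.14 in WT (95% interval -0.19 to 0.46) and by 0.08 in KO (95% interval -0.26 to 0.41). In set 2 alone, compared with the same controls, Wnt7a and Wnt7b were called higher in WT, and the called members came to 6, against 0 in set 1 alone, while the calls over all genes came to 4244 (23.4%) in set 2 alone and 197 (1.09%) in set 1 alone. A single array also decided other ligands, named here after their values were seen: Wnt2b was called lower in WT without UUO array 3892, Wnt10a higher in KO without array 3819, and Wnt9b lower in KO without array 3811, 3812, 3818, 3819, 3820 or 3821. Wnt9b was also called lower in KO in set 2 alone, without quantile normalization, with a trend in the prior variance and with array weights. A missed threshold does not show that a ligand kept its level. Neighbouring Wnt genes form 4 pairs in the RefSeq annotation, Wnt1 with Wnt10b, Wnt3a with Wnt9a, Wnt6 with Wnt10a and Wnt3 with Wnt9b, and none of these was called.

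Lrp6, the co-receptor that canonical Wnt signaling needs beside a Frizzled, was lower after UUO in both genotypes. Its log2 intensity was 7.76 and 7.68 on the WT controls, and on the 7 WT UUO arrays it was 7.30 at the lowest, 7.39 at the median and 7.63 at the highest. It was 7.51 and 7.55 on the KO controls and 7.37, 7.17, 7.37, 7.26 and 7.25 on the KO UUO arrays. In each genotype all obstructed kidneys lay below both controls, by a gap of only 0.05 in WT and 0.14 in KO. The difference was -0.28 in WT (SE 0.0751, adjusted p = 0.0201 from limma) and -0.25 in KO (SE 0.0784, adjusted p = 0.0323 from limma). In WT the adjusted p from limma was 0.199 without control 3811, 0.102 without control 3812 and 0.0842 in set 1 alone. In KO it was 0.122 without control 3813, 0.192 without control 3814, 0.0651 without UUO array 3822, 0.0557 without 3898 and 0.0567 without 3899, and it was 0.0675 in set 1 alone and 0.0637 in set 2 alone. The difference was between -0.32 and -0.22 in each of these settings. In bulk tissue, fewer cells with the transcript and less transcript in each cell cannot be told apart.

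Lrp5, the related co-receptor, was not called. On the WT controls it was at 7.59 and 7.25, and on the WT UUO arrays it was 7.26 at the lowest, 7.34 at the median and 7.54 at the highest. On the KO controls it was at 7.49 and 7.34 and on the KO UUO arrays at 7.18, 7.05, 7.22, 7.40 and 7.51. The groups overlapped in both genotypes. The difference was -0.04 in WT (95% interval -0.27 to 0.19) and -0.14 in KO (95% interval -0.38 to 0.10), and in WT it was 0.13 without control 3811 and -0.21 without control 3812. In KO it was -0.07 without control 3813, -0.22 without control 3814, -0.09 without UUO array 3822, -0.30 in set 1 alone and -0.04 in set 2 alone.

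Of the 9 Frizzled receptors, only Fzd2 was called, and only in KO kidneys. Its log2 intensity was 7.10 and 7.19 on the KO controls and 7.04, 6.94, 6.86, 6.88 and 6.98 on the KO UUO arrays. On the WT controls it was 7.02 and 6.95, and on the WT UUO arrays 6.87 at the lowest, 6.94 at the median and 7.10 at the highest. In KO all obstructed kidneys lay below both controls, while the WT groups overlapped. The difference was -0.20 in KO (SE 0.0624, adjusted p = 0.0292 from limma) and -0.02 in WT (95% interval -0.15 to 0.11). The test of the difference between the genotypes in this response gave -0.18 (95% interval -0.37 to -0.000334, adjusted p = 0.973 from limma), so the responses were not shown to differ. The KO controls differed from the WT controls by 0.15 (95% interval -0.00489 to 0.31). The call was lost without control 3813 (adjusted p = 0.0684), control 3814 (0.258), UUO array 3897 (0.0597) or UUO array 3898 (0.0577), and in set 1 alone (0.319), all from limma. In WT the difference was 0.0165 without control 3811 and 0.0120 in set 1 alone.

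Fzd6, a receptor with a role in planar cell polarity, is given because it was among the 4 members with the lowest p between the genotypes after UUO. It was at 7.88 and 7.93 on the WT controls, and at 7.50 at the lowest, 7.65 at the median and 7.85 at the highest on the WT UUO arrays. It was at 8.03 and 7.90 on the KO controls and at 7.94, 7.95, 7.66, 7.64 and 7.83 on the KO UUO arrays. All WT obstructed kidneys lay below both controls by a gap of 0.03, and the KO groups overlapped. The difference was -0.24 in WT (95% interval -0.44 to -0.04, adjusted p = 0.105 from limma) and -0.16 in KO (95% interval -0.37 to 0.04). In set 2 alone it was called in both genotypes. The other receptors lay between -0.24 (Fzd7) and 0.07 (Fzd3) in WT and between -0.24 (Fzd7) and 0.16 (Fzd4) in KO, named here after their values were seen. The 95% interval of Fzd7 was -0.48 to -0.00348 in WT and -0.49 to 0.01 in KO, and that of Fzd4 was -0.13 to 0.12 in WT and 0.02 to 0.29 in KO (adjusted p = 0.0947 from limma). In WT, Fzd6 was also called without UUO array 3818, where the called members came to 4.

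Sfrp1, a secreted protein that binds Wnt ligands and holds them from their receptors, gave the largest difference among the 42 members in both genotypes. Its log2 intensity was 8.27 and 8.60 on the WT controls, and on the 7 WT UUO arrays it was 7.32 at the lowest, 7.36 at the median and 7.73 at the highest. It was 8.28 and 8.81 on the KO controls and 7.31, 7.25, 7.27, 7.39 and 7.30 on the KO UUO arrays. In each genotype all obstructed kidneys lay below both controls, with a gap of 0.54 in WT and 0.89 in KO. The 2 highest WT UUO values were those of arrays 3820 (7.73) and 3818 (7.65), the arrays nearest the controls in Havcr1. The intensity after UUO was 0.505 times that of the controls in WT (log2 difference -0.99, SE 0.131, adjusted p = 3.06e-04 from limma) and 0.423 times in KO (log2 difference -1.24, SE 0.137, adjusted p = 3.06e-05 from limma). The KO call was kept in every alternative that was run, and the WT call was lost in set 1 alone (log2 difference -0.87, adjusted p = 0.0773 from limma). With each array left out in turn the difference ran from -1.15 to -0.82 in WT and from -1.50 to -0.98 in KO. The difference between the genotypes in this response was -0.25 (95% interval -0.66 to 0.15, adjusted p = 0.973 from limma), and it was 0.00554 without KO control 3814 and -0.51 without KO control 3813.

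**Figure D2:**
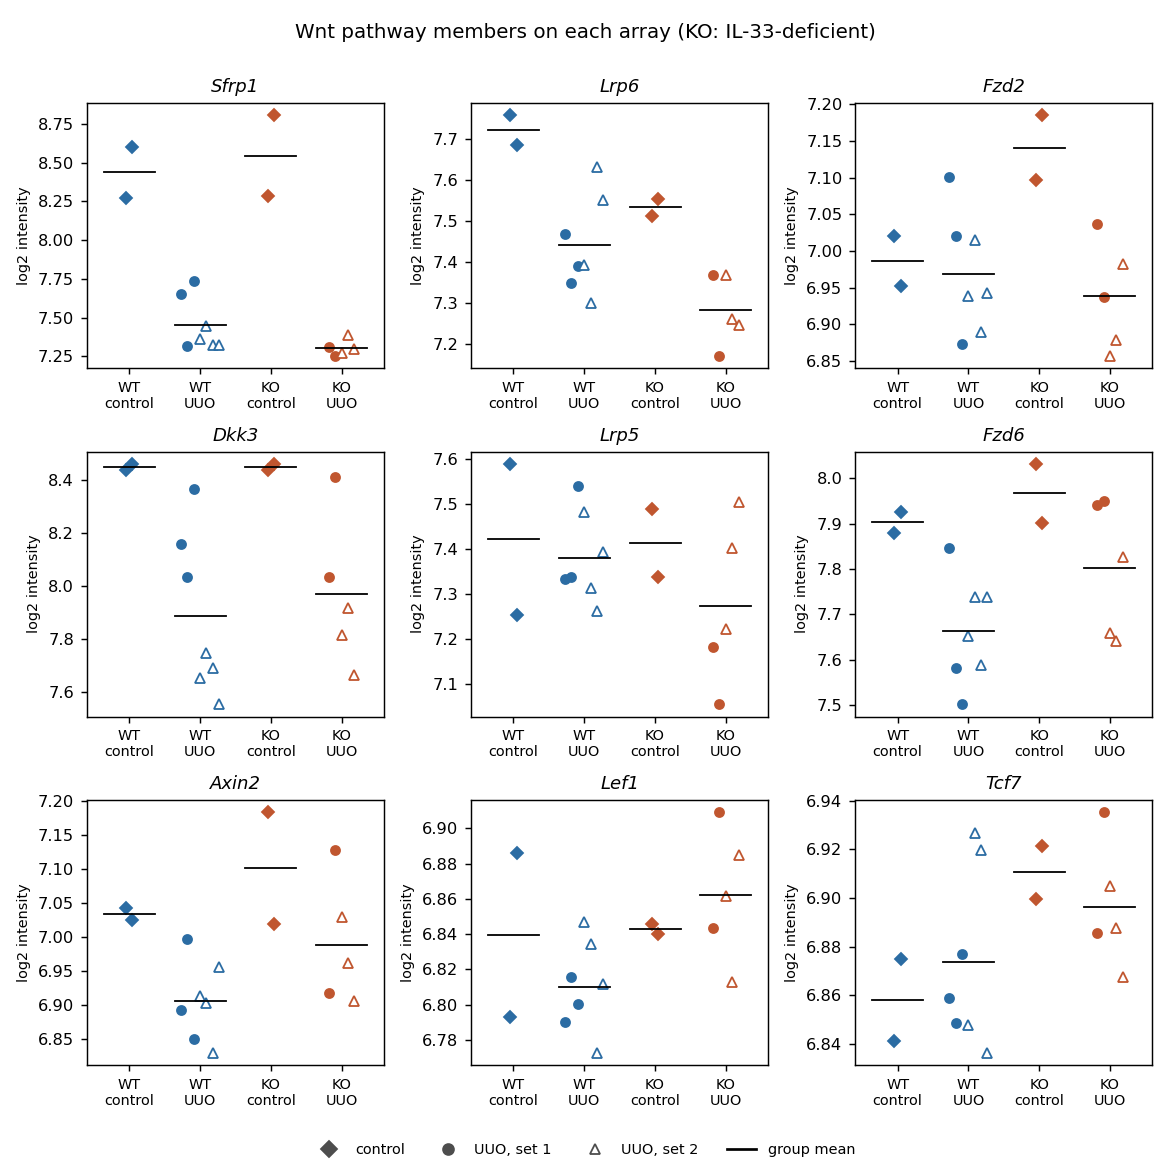
Log2 intensity (vertical axis, with its own range in each panel) of 9 members on each of the 16 arrays, by group (horizontal axis). Diamonds are controls, filled circles UUO arrays of set 1, open triangles UUO arrays of set 2, and black lines group means. All UUO arrays lie below both controls of their genotype for Sfrp1, Lrp6 and Dkk3, and the Dkk3 triangles of each genotype lie below its circles.

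Dkk3, a secreted glycoprotein of the Dickkopf family that differs from Dkk1 in not blocking Lrp6, is described because of its values, which were seen before it was chosen. It was at 8.44 and 8.46 on the WT controls and at 8.44 and 8.46 on the KO controls. The WT UUO arrays of set 1 read 8.16, 8.04 and 8.37, and those of set 2 read 7.55, 7.65, 7.75 and 7.69. The KO UUO arrays of set 1 read 8.03 and 8.41, and those of set 2 read 7.82, 7.92 and 7.66. In each genotype all obstructed kidneys lay below both controls and those of set 2 below those of set 1. The difference from controls was -0.56 in WT (95% interval -0.99 to -0.14, adjusted p = 0.0693 from limma) and -0.48 in KO (95% interval -0.92 to -0.04, adjusted p = 0.121 from limma), so neither was called over both sets. In set 2 alone it was called, at -0.79 in WT (adjusted p = 6.80e-06) and -0.65 in KO (adjusted p = 3.83e-05), against -0.26 and -0.23 in set 1 alone, all from limma. Both runs used the same controls, whose set is not stated. In a single set, UUO therefore cannot be told apart from a difference between sets of mice. The WT difference was also called without WT UUO array 3818 (adjusted p = 0.0468) or 3820 (0.0146) or KO UUO array 3822 (0.0440), with array weights (0.00754) and among the brighter genes alone (0.0369), and the KO difference without array 3822 (0.0391). Set 2 minus set 1 over the UUO arrays, with genotype as a term, was -0.48 (95% interval -0.65 to -0.32, adjusted p = 0.0773 from limma), and without array 3822 it was -0.44 (adjusted p = 0.0458). That comparison was added after these values had been seen. It called 0 of 42 members with limma, where 0% of all genes were called, and at an unadjusted p under 0.05 there were 3 members, Dkk3, Wif1 and Wnt4, beside 10.1% of all genes. Over all genes it called 112 without array 3822 (83 higher and 29 lower in set 2), 6 without 3820, 3 without 3819, 1 without 3818 and 0 without any other UUO array.

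The other secreted inhibitors gave no call. Dkk1, Dkk2 and Dkk4, like Sfrp2, Sfrp4 and Sfrp5, were dim in all groups. Wif1, which binds Wnt ligands directly, had group means between 7.12 and 7.22 and differed by 0.03 in WT (95% interval -0.16 to 0.21) and by 0.00604 in KO (95% interval -0.18 to 0.20).

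Axin2 is a scaffold of the beta-catenin destruction complex whose gene is switched on by that same pathway, so it is often read as its gauge. Its log2 intensity was 7.04 and 7.03 on the WT controls, and on the WT UUO arrays 6.83 at the lowest, 6.90 at the median and 6.998 at the highest. It was 7.18 and 7.02 on the KO controls and 6.92, 7.13, 7.03, 6.96 and 6.91 on the KO UUO arrays. All WT obstructed kidneys lay below both controls by a gap of 0.03, and the KO groups overlapped. The difference was -0.13 in WT (95% interval -0.26 to 0.000164, adjusted p = 0.193 from limma) and -0.11 in KO (95% interval -0.25 to 0.02, adjusted p = 0.257 from limma), and in KO it was -0.03 without control 3813 and -0.19 without control 3814. Its values lay around the median of all genes, where changes may be compressed.

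Lef1 and Tcf7 encode DNA-binding partners of beta-catenin, and both were dim. Lef1 was at 6.79 and 6.89 on the WT controls, at 6.77, 6.81 and 6.85 as lowest, median and highest on the WT UUO arrays, at 6.85 and 6.84 on the KO controls and at 6.84, 6.91, 6.86, 6.81 and 6.89 on the KO UUO arrays. Tcf7 was at 6.84 and 6.88 on the WT controls, at 6.84, 6.86 and 6.93 as lowest, median and highest on the WT UUO arrays, at 6.90 and 6.92 on the KO controls and at 6.89, 6.94, 6.91, 6.89 and 6.87 on the KO UUO arrays. For both genes obstructed and control kidneys overlapped in each genotype. The Lef1 difference was -0.03 in WT (95% interval -0.10 to 0.05) and 0.02 in KO (95% interval -0.06 to 0.10), and that of Tcf7 was 0.02 in WT (95% interval -0.06 to 0.09) and -0.01 in KO (95% interval -0.09 to 0.06). Leaving out a single WT control turned the WT sign of each, to 0.0170 for Lef1 without control 3812 and to -0.00137 for Tcf7 without control 3811.

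Between the genotypes after UUO, the question was whether IL-33 deficiency moved these genes in obstructed kidneys. The study's threshold, a fold change above 1.3 together with a p under 0.05 before adjustment and under 0.25 after it, was set for a contrast of 5 KO with 4 WT samples and is applied here to all 12 UUO arrays, 7 of them WT. No member passed it: 0 of 42 from limma, where 0.0110% of all genes passed, and at an unadjusted p under 0.05 there was 1 member, Lrp6, beside 10.3% of all genes. The 2 genes that passed over the whole table became 309 without WT UUO array 3819, 94 without KO UUO array 3899, 31 without WT array 3820, 6 without WT array 3818 and 1 without any other UUO array, and they became 127 with 4 groups in one model. No member was among them in any of these. Differences of KO from WT ran from -0.16 at Lrp6 to 0.14 at Fzd6, with a median of 0.000742 against 0.00262 over all genes. The 95% intervals of 42 of 42 members lay within 0.5 of 0. Of these members 25 were dim in all groups, where changes may be compressed, so narrow intervals there do not show unchanged transcripts. The share of all genes with such intervals was not counted.

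Lrp6 differed by -0.16 between KO and WT obstructed kidneys (95% interval -0.28 to -0.03, adjusted p = 0.388 from limma). All 5 KO values lay below the WT median, and 3 of 5 below the lowest WT value. Within the sets the difference was -0.13 in set 1 and -0.18 in set 2. The control kidneys of the genotypes differed by -0.19 (95% interval -0.39 to 0.01), and the response to UUO differed between the genotypes by 0.03 (95% interval -0.20 to 0.26).

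The next members by p were Lef1, Sfrp1 and Fzd6. Lef1 differed by 0.05 (95% interval -0.00182 to 0.11), with 5 of 5 KO values above the WT median. Sfrp1 differed by -0.15 (95% interval -0.31 to 0.02), with -0.29 in set 1 and -0.04 in set 2. Fzd6 differed by 0.14 (95% interval -0.02 to 0.29), with 0.30 in set 1 and 0.03 in set 2. These 4 members, Lrp6 among them, were chosen out of 42 for their low p in this same comparison, and the adjusted p of each from limma was above 0.25.

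**Figure D3:**
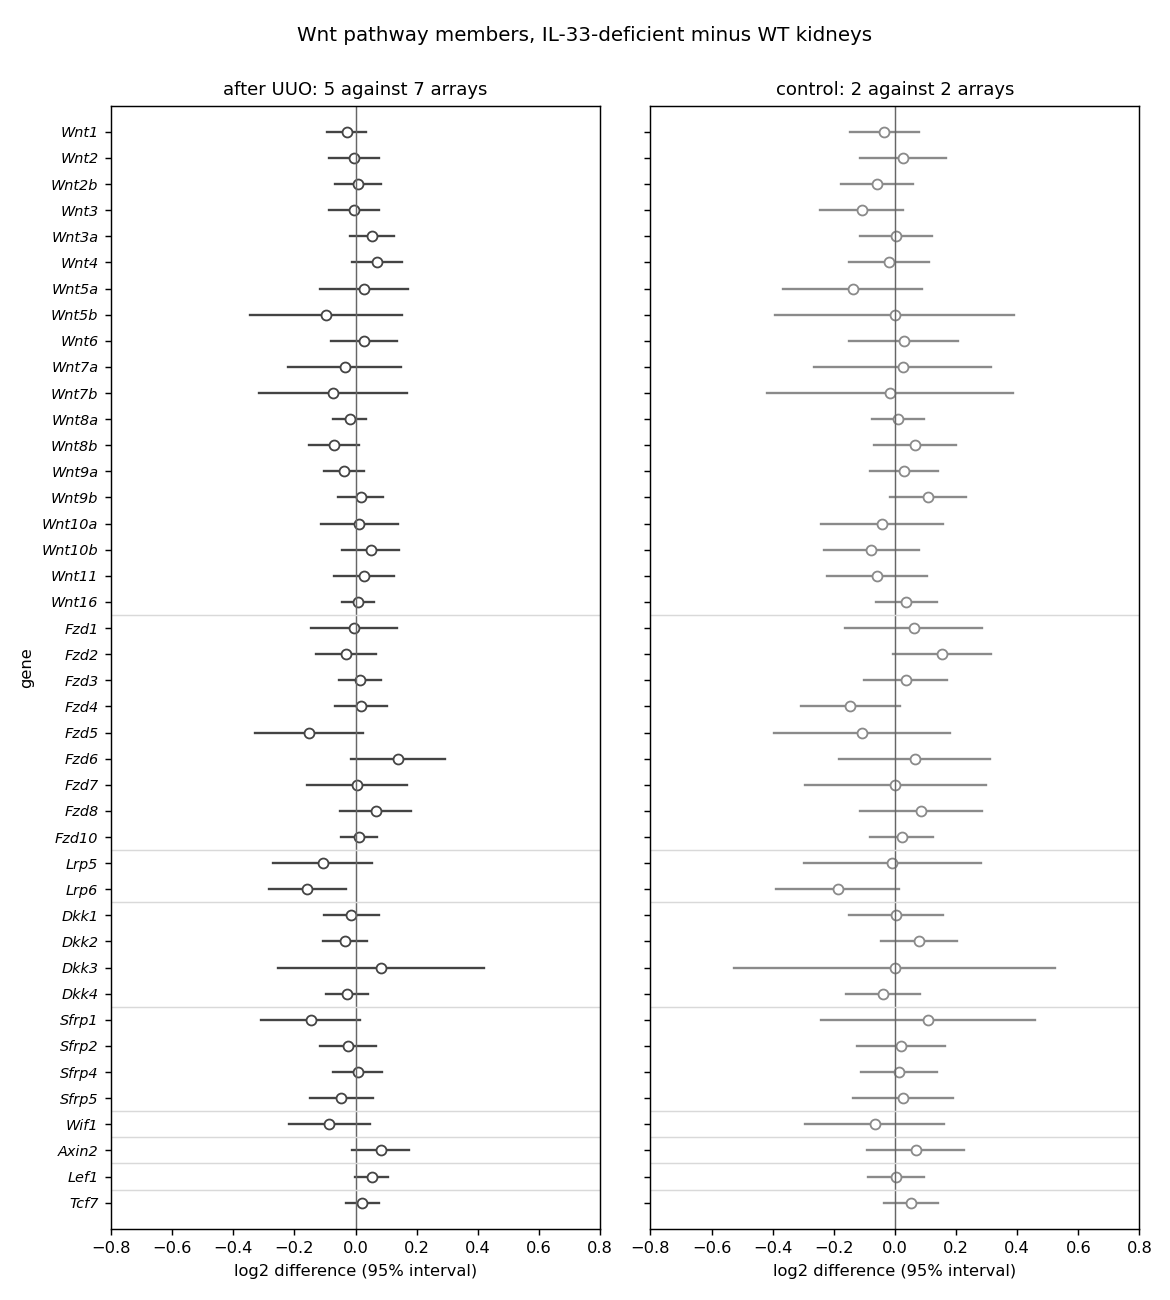
Difference in log2 intensity between IL-33-deficient and WT kidneys (horizontal axis) for each of the 42 members (vertical axis), after UUO on the left and in controls on the right. Points are differences of group means and bars 95% intervals from limma. After UUO the points lie between -0.16 and 0.14, and only the bar of Lrp6 leaves out 0.

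In control kidneys limma called 0 of 42 members between the genotypes, where 0% of all genes were called, and 0 members had an unadjusted p under 0.05, beside 3.66% of all genes. With 2 arrays on each side, the differences ran from -0.19 at Lrp6 to 0.15 at Fzd2. For the difference between the genotypes in the response to UUO, limma again called 0 of 42 members and 0% of all genes (1 gene without WT UUO array 3818 and 2 genes in set 2 alone), and at an unadjusted p under 0.05 there was 1 member, Fzd2, beside 4.74% of all genes. The estimates ran from -0.25 at Sfrp1 to 0.17 at Wnt5a.

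The pathway around these members was followed in 8 lists of 82 further genes, 75 of which were measured. In WT kidneys 8 of the 75 were called lower and 3 higher after UUO, beside 8.22% and 6.97% of all genes, and in KO kidneys 12 were lower and 5 higher, beside 11.2% and 10.6%. Between the genotypes 0 were called after UUO, 0 in controls and 0 in their response, from limma, while 6, 6 and 2 had an unadjusted p under 0.05, beside 10.3%, 3.66% and 4.74% of all genes. The median difference over the 75 genes was 0.00949 in WT and -0.02 in KO, against -0.000759 and -0.00057 over all genes. For the 10 genes called in 1 genotype only, the response differed between the genotypes by values from -0.35 (Lrp4) to 0.12 (Birc5), with adjusted p from 0.973 to 0.997 from limma, so none was shown to respond differently.

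The largest change among the called genes of these lists was at Sp5, a transcription factor gene that beta-catenin with TCF/LEF switches on directly. Its log2 intensity was 9.49 and 9.45 on the WT controls, and on the WT UUO arrays it was 8.23 at the lowest, 8.46 at the median and 9.20 at the highest. It was 9.68 and 9.52 on the KO controls and 8.10, 8.35, 8.07, 8.15 and 8.50 on the KO UUO arrays. All obstructed kidneys lay below both controls of their genotype, and the WT array nearest to the controls was 3820. The difference was -0.92 in WT (SE 0.194, adjusted p = 0.00511 from limma) and -1.37 in KO (SE 0.202, adjusted p = 2.19e-04 from limma). The WT call was lost without control 3811 (adjusted p = 0.0659) or 3812 (0.0644) and in set 1 alone (0.181), all from limma. The difference between the genotypes in this response was -0.45 (95% interval -1.05 to 0.15).

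RefSeq promoter sequences were searched for the TCF/LEF motif CTTTGAT, and for the further form CTTTGTT, on both strands over the 250 bases before a gene's start. Of the 42 members, 28 had 1 or more windows, 35 in all. Sfrp1, Lrp6, Fzd2 and Dkk3 had none. CTTTGAT was found in 2 of these 35 windows (5.71%), 1 each of Wnt11 and Wnt5b, and CTTTGTT in 2 (5.71%), of Dkk1 and Fzd7, while 3.21% and 5.03% of all 32851 windows hold these forms. The promoters of Sp5, which fell, and of Axin2, the customary gauge of the pathway, are shown as targets of the same factors with and without the motif. Both are from GRCm38.p6, on the plus strand, at chr2:70474673-70474922 for Sp5 and chr11:108920099-108920348 for Axin2, with motif matches in capitals.
Sp5: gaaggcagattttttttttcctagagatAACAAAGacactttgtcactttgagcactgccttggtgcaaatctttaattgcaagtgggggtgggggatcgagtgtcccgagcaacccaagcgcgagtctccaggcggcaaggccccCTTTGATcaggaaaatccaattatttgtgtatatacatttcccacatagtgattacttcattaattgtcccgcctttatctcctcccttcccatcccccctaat
Axin2: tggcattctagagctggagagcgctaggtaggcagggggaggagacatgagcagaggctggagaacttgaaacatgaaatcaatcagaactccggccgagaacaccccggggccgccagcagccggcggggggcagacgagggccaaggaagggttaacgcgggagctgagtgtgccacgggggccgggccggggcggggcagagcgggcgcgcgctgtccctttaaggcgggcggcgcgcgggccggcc
In Sp5 the capitals mark AACAAAG, the reverse complement of CTTTGTT, which begins 222 bases before the start, and CTTTGAT, which begins 104 bases before it. The Axin2 window holds neither form. A match in letters is not shown to be a bound site, and the lack of it in this window says nothing about the factor.

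Of 18 textbook target genes of beta-catenin 15 were measured, Sp5 among them, and 2 were lower and 2 higher in WT, beside 8.22% and 6.97% of all genes, and 1 lower and 3 higher in KO, beside 11.2% and 10.6%. Their median difference was 0.04 in WT and -0.03 in KO. Ccn4 (listed under its older symbol Wisp1), a matrix-associated growth regulator, rose by 0.55 in WT (SE 0.102, adjusted p = 0.00226 from limma) and by 0.72 in KO (SE 0.106, adjusted p = 2.19e-04 from limma), and all obstructed kidneys lay above both controls. Birc5, a survival and mitosis gene, rose by 0.54 in KO (SE 0.159, adjusted p = 0.0246 from limma) and differed by 0.41 in WT (95% interval 0.09 to 0.74). The further calls were Snai1, higher in both genotypes, and Ppard, lower in WT, both named after their values were seen. Sp5 and Ccn4 thus moved in opposite directions within the list. The call of Ccn4 was lost in WT in set 1 alone (adjusted p = 0.130), and that of Birc5 without KO control 3813 (0.127) or 3814 (0.136), all from limma.

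**Figure D4:**
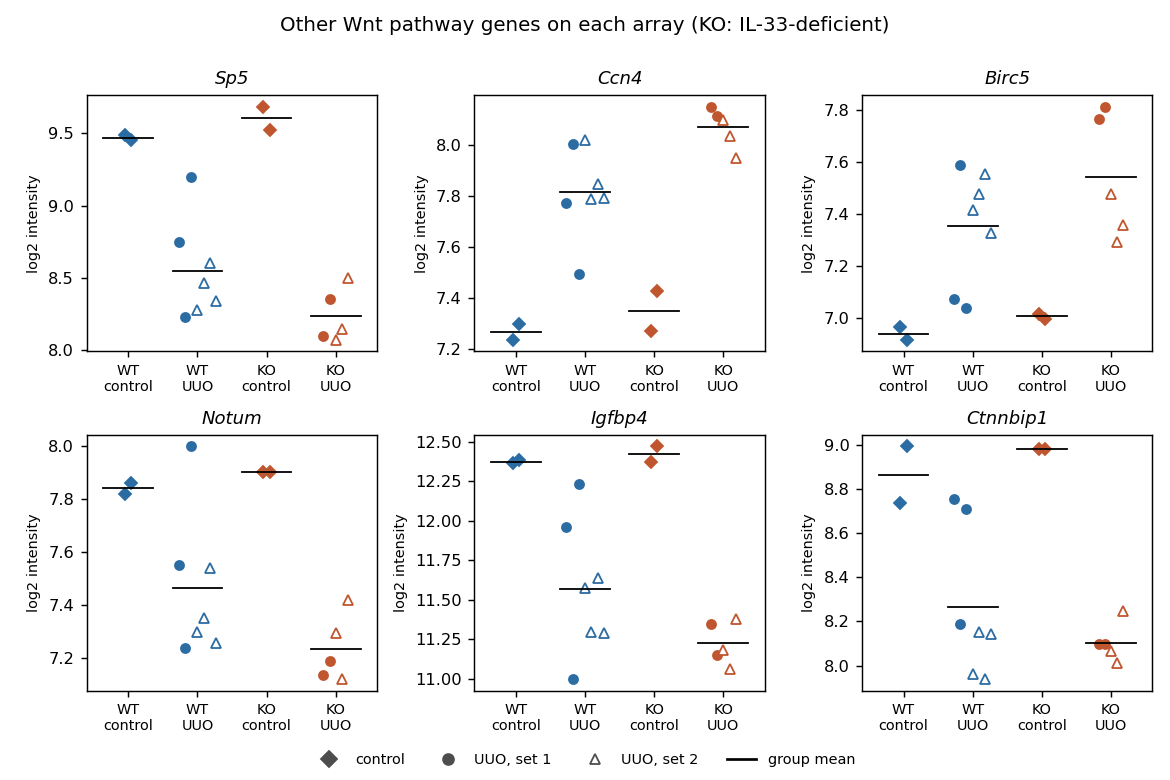
Log2 intensity (vertical axis, with its own range in each panel) of 6 further pathway genes on each of the 16 arrays, by group (horizontal axis). Diamonds are controls, filled circles UUO arrays of set 1, open triangles UUO arrays of set 2, and black lines group means. Sp5 and Igfbp4 lie below both controls of their genotype and Ccn4 and Birc5 above them on every UUO array, while for Notum WT array 3820 lies above both controls.

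Outside the cell, 1 of 3 genes of ligand processing, 1 of 10 further secreted inhibitors and binding proteins and 1 of 7 other receptors were called lower in KO, with 0, 1 and 0 lower in WT by limma, where 1, 1 and 1 had an unadjusted p under 0.05, and none higher, where 11.2% of all genes were called lower in KO and 8.22% in WT. Igfbp4, an IGF-binding protein that also binds Frizzled and Lrp6, fell, with a difference of -0.80 in WT (SE 0.225, adjusted p = 0.0255 from limma) and -1.20 in KO (SE 0.235, adjusted p = 0.00176 from limma). Notum, an enzyme that strips the lipid from Wnt ligands and is itself a pathway target, fell in KO, with a difference of -0.67 (SE 0.156, adjusted p = 0.00553 from limma), and gave -0.38 in WT (95% interval -0.70 to -0.06). Lrp4, a receptor that binds the inhibitors sclerostin and Dkk1, fell in KO, with a difference of -0.56 (SE 0.179, adjusted p = 0.0363 from limma), and gave -0.21 in WT (95% interval -0.58 to 0.16). Of 8 measured genes of the R-spondin axis, which keeps Frizzled receptors on the cell surface, 0 were called in either genotype by limma and 0 had an unadjusted p under 0.05. Of 10 measured genes of planar cell polarity, Celsr2, an atypical cadherin, fell, with differences of -0.44 in WT and -0.59 in KO, and Prickle1 fell in KO, with -0.34. The KO controls differed from the WT controls in Prickle1 by 0.38 (95% interval 0.13 to 0.63, adjusted p = 1.00 from limma, 2 arrays on each side). The WT calls of Igfbp4 and Celsr2 were lost without either WT control (adjusted p from 0.106 to 0.177) and in set 1 alone (0.371 and 0.203). Without KO control 3813 or 3814 the KO calls of Notum (0.0542 and 0.0501), Lrp4 (0.0552 and 0.349) and Prickle1 (0.0980 and 0.155) were lost. That of Lrp4 was also lost without UUO array 3821 (0.0638), 3822 (0.0506), 3897 (0.0557) or 3899 (0.0673), all adjusted p from limma, and its difference was -0.38 without control 3814. In set 1 alone the KO calls of Igfbp4 (0.0695), Notum (0.0564), Lrp4 (0.204) and Prickle1 (0.104) were lost, all from limma. The KO differences there were -1.17 for Igfbp4, -0.74 for Notum, -0.57 for Lrp4 and -0.19 for Prickle1.

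Inside the cell, 1 of 11 measured genes of Dishevelled and the destruction complex was called higher in WT, and 2 lower and 1 higher in KO. Over all genes 8.22% were lower and 6.97% higher in WT, and 11.2% lower and 10.6% higher in KO, here and for the nuclear cofactors. Csnk1e, a kinase of Dishevelled, rose by 0.43 in WT (SE 0.132, adjusted p = 0.0396 from limma) and by 0.63 in KO (SE 0.138, adjusted p = 0.00353 from limma). Dvl1, which carries the signal from Frizzled, fell in KO, with a difference of -0.34, and so did Btrc, which marks beta-catenin for destruction, with -0.20. In Btrc the KO controls differed from the WT controls by 0.16 (95% interval 0.02 to 0.30, not called, 2 arrays on each side). After UUO the genotypes differed in Btrc by 0.04 (95% interval -0.04 to 0.13). Ctnnb1, the beta-catenin gene, was named after its values were seen, and differed by 0.19 in WT (95% interval -0.14 to 0.52) and by 0.35 in KO (95% interval 0.00607 to 0.69, adjusted p = 0.155 from limma). Of 11 measured nuclear cofactors, 4 were lower and 0 higher in WT, and 4 lower and 1 higher in KO. Ctnnbip1, which keeps beta-catenin from TCF/LEF factors, fell, with a difference of -0.60 in WT (adjusted p = 0.0360 from limma) and -0.88 in KO (adjusted p = 0.00325 from limma). Bcl9l, a coactivator of beta-catenin, fell, with -0.35 in WT and -0.40 in KO, and Pygo2, its partner, rose by 0.40 in KO. The remaining calls, named after their values were seen, were lower: Tle1 in WT, Tcf7l2 in KO, and Tle2 in both.

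The WT call of Csnk1e was lost without control 3811, 3812, 3813 or 3814 or UUO array 3819, 3895, 3892, 3897, 3893, 3898 or 3894 (adjusted p from 0.0506 to 0.220, here and below from limma). The WT call of Ctnnbip1 was lost without control 3811 or 3812 or UUO array 3819, 3895, 3892, 3893 or 3894 (from 0.0539 to 0.331). The WT call of Bcl9l was lost without control 3813 or 3814 or UUO array 3819, 3822, 3895, 3892, 3893 or 3894 (from 0.0524 to 0.0708), and without control 3812 its difference was -0.11 (0.708) and without control 3811 it was -0.59 (0.0136). In set 1 alone none of these WT calls held (from 0.310 to 0.420). The WT differences there were 0.38 for Csnk1e, -0.31 for Ctnnbip1 and -0.31 for Bcl9l. Without KO control 3813 or 3814 the KO calls of Dvl1, Btrc, Bcl9l and Pygo2 were lost (from 0.0900 to 0.173). That of Pygo2 was also lost without UUO array 3821 (0.0512), 3822 (0.0670) or 3897 (0.0536). In set 1 alone those of Btrc (0.230), Bcl9l (0.183) and Pygo2 (0.0890) were lost.

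Markers of the cells of the kidney moved with UUO as well, and their part in these results was not tested. Of 7 tubule markers 3 were lower in each genotype, and of 4 tubular injury markers 4 were higher in each. The shares of all genes to set beside these counts and those of the next marker lists are 8.22% lower and 6.97% higher in WT, and 11.2% lower and 10.6% higher in KO. The summed intensity of the tubule list was 56040 and 52355 on the WT controls and 31539, 38710 and 54356 as lowest, median and highest on the WT UUO arrays, the highest on array 3820. It was 56929 and 52957 on the KO controls and 28857, 32299, 32634, 33746 and 35379 on the KO UUO arrays. Every KO obstructed kidney was below both its controls, WT array 3820 lay between the WT controls, and the gene of the list with the highest mean was Slc34a1 in both control groups and Kap in both UUO groups, on probes that do not rank abundance. The injury list summed to 576 and 546 on the WT controls and to 5409, 24358 and 29772 as lowest, median and highest on the WT UUO arrays, to 559 and 589 on the KO controls and to 29447, 29188, 26196, 26287 and 22259 on the KO UUO arrays. Its highest mean was that of Havcr1 in KO UUO and of Lcn2 in the other groups. Obstructed and control kidneys did not overlap in this list.

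Of 7 fibroblast and myofibroblast markers, 4 were higher in WT and 5 in KO after UUO. Between the genotypes after UUO, 1 of 7 passed the study's threshold, beside 0.0110% of all genes. In that comparison 5 of 7 had an unadjusted p under 0.05 from limma, beside 10.3% of all genes. Their summed intensity was 3144 and 3562 on the WT controls and 3170, 3898 and 4986 as lowest, median and highest on the WT UUO arrays. It was 3166 and 3298 on the KO controls and 5448, 6261, 5669, 5358 and 5241 on the KO UUO arrays, and the highest mean was that of Dcn in both control groups and of Acta2 in both UUO groups. All KO obstructed kidneys stood above all WT obstructed kidneys, and the part of this in the values of Lrp6, Lef1, Sfrp1 and Fzd6 between the genotypes was not tested.

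Of 7 macrophage and neutrophil markers 2 were higher and 1 lower in WT and 3 higher and 1 lower in KO, and their sum was 1259 and 1366 on the WT controls, 999 and 1221 on the KO controls, 1373 to 2766 on the WT UUO arrays and 1832 to 3361 on the KO UUO arrays, with the highest mean at Csf1r in KO controls and at S100a8 in the other groups. Of 5 endothelial markers, Tie1 was lower in KO and 0 were called in WT by limma (1 at an unadjusted p under 0.05), with sums of 2769 to 3235 on the controls and 2556 to 3283 on the UUO arrays, and the highest mean at Emcn in each group. Of 5 urothelial markers 3 were lower in KO and 0 in WT by limma (3 at an unadjusted p under 0.05), with sums of 637 to 755 on the controls and 569 to 636 on the UUO arrays, and the highest mean at Upk3a in KO UUO and at Upk2 in the other groups. Of 7 T lymphocyte markers 0 were called in either genotype by limma and 0 had an unadjusted p under 0.05, and 4 were dim in all groups. Their sums were 869 to 1013 over the 16 arrays, with the highest mean at Cd3d in KO controls and at Lck in the other groups.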

How the data were processed

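The deposited table holds 1 linear intensity per gene and array, 18132 genes on 16 arrays, read in by the authors with beadarray; BeadStudio 2 is listed too. How they corrected background, normalized and joined probes is not stated. No value was missing, every column was used, and without detection p-values no gene was removed.

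Here the intensities were quantile-normalized, put on the log2 scale and fitted by limma 3.58.1 (lmFit, eBayes; R 4.3.3). P-values were adjusted by Benjamini and Hochberg's method across the whole table. All 16 arrays entered a model of the 4 groups, and the 12 UUO arrays alone the comparison of genotypes after UUO. Tables were made in Python 3.11.15 with numpy 2.4.6 and pandas 2.3.3, and plots with matplotlib 3.10.9.

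Values are given for members called after UUO, for Axin2, Lef1, Tcf7, Lrp5 and Lrp6, for the 4 members with the lowest p between genotypes after UUO (exact permutation tests of these were run and are not given, because the same comparison chose them), and for the 3 called genes of each pathway list with the largest change. Of the pathway genes, 75 of 82 were measured. The members, by the rule on their symbols, and the lists were chosen with earlier results of these data known.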

Additional observations from a re-analysis of the deposited data

Results flagged for a closer look

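In each UUO group, each member's highest and lowest array was compared with the rest, and an array was singled out where its gap to the nearest other took up an unusually large share of the group's range. Of 84 such groups 4 held an array of this kind, about the number that chance alone gives at 1 group in 20. Wnt5b, a ligand of the branches that act without beta-catenin, was at 7.77 on WT UUO array 3820, against 6.99 to 7.29 on the others. Wnt5a was at 7.88 on WT UUO array 3819, against 7.47 to 7.64. Wnt8b, which was dim in all groups, was at 7.04 on WT UUO array 3894, against 6.83 to 6.90. Fzd8 was at 7.17 on WT UUO array 3892, against 7.03 to 7.09.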

How the results depend on the processing

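Sfrp1, Lrp6 and Fzd2, where called, were lower under every alternative run. Of 47 differences 42 never turned sign, and of 1046 recomputed values 945 kept sign and side of the threshold, 86 lost the call, 9 gained it and 6 turned sign. The 5 differences that turned were not called: in WT, Fzd2 (0.01201 in set 1 alone, -0.05221 to 0.01654 with each array left out), Lef1 (-0.07568 to 0.01697 with each array left out), Tcf7 (-0.00137 to 0.03261) and Lrp5 (-0.21022 to 0.12679), and the difference between the genotypes in the response of Sfrp1 (-0.51486 to 0.00554). The 2 called members in WT became 0 in set 1 alone, 6 in set 2 alone and 1 to 4 with each array left out, while the calls over all genes went from 2754 to 197, to 4244 and to between 809 and 3578. The 3 in KO became 1 in set 1 alone, 5 in set 2 alone and 1 to 5 with each array left out, while the calls over all genes went from 3955 to 2261, to 4460 and to between 2276 and 4294. Each set alone has fewer UUO arrays, and the cause of the gap between the sets was not tested. Between the genotypes, in controls and in the response, the count was 0 in every alternative, including the set as a block, 4 groups in one model and an adjusted p under 0.05 after UUO. The genes of the whole table that passed the study's threshold after UUO numbered 2, and 1 to 309 with each array left out. They came to 0 in set 1 alone, 81 in set 2 alone, 80 with array weights, 127 with 4 groups in one model, 164 among the brighter genes alone, and 1 to 3 in the other alternatives. For set 2 against set 1 the members called were 0 to 1 with each UUO array left out, and the genes 0 to 112. Without quantile normalization and with median centring the counts were 2 and 2 in WT and 4 and 3 in KO, all lower. Among brighter genes only, 3 of 15 members were called in WT and 2 of 15 in KO, beside 33.0% and 44.4% of those genes. With a trend in the prior variance the counts were 2 in WT and 4 in KO, beside 14.2% and 20.7% of all genes. Array weights gave 3 and 4, beside 22.2% and 24.2%. All of these members were lower. Where a control was left out, the lone control is assumed to vary like the other groups. Background was not measured. The lowest intensity was 95.5, and changes of dim genes, most Wnt ligands among them, may be compressed. No paired analysis was possible because the labels share no replicate numbers between groups.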
